A study of Mus musculus with 2 samples.

Results

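Clu, Spp1, Anxa1, Ly6a, Cd44 and Sox9 are genes named as marks of fetal-like or regenerating gut epithelium, and they are described here as 6 named genes of the 32285 in the tables. Single-cell RNA was measured in 2 libraries, each pooled from 3 mice that cannot be separated in the files. The WT library is normal duodenum, and its mice were Lkb1+/+;Myh11-Cre/ERT2. The Lkb1_Het library is polyp tissue, and its mice were Lkb1flox/+;Myh11-Cre/ERT2. Both groups carry the inducible Cre under the Myh11 promoter, which is active in smooth muscle and related stroma and not, by design, in the epithelium described here. Lkb1 encodes a kinase, and the polyp mice carry 1 floxed allele of it. The labels give duodenum as the tissue of both libraries, and no age, sex or induction schedule. With 1 library a group there is no replicate and no test between groups. Intervals are exact 95% intervals that cover counting error only.

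When gut epithelium is injured, cells near the crypt base can switch off adult stem cell genes and take on a programme seen in the fetal intestine, with YAP and TEAD factors among its known drivers. Clu encodes clusterin, a secreted chaperone that marks revival stem cells, and Spp1 encodes osteopontin, a secreted ligand of integrins and CD44. Anxa1 encodes annexin A1, a membrane-binding protein released during inflammation, and Ly6a encodes Sca-1, the surface protein used to sort fetal-like cells. Cd44 encodes a receptor for hyaluronan and osteopontin, and Sox9 a transcription factor of crypt, gland and progenitor cells.

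By gene ID in the GENCODE M21 annotation of GRCm38 (mm10), Clu lies at chr14:65968483-65981547 on the plus strand and Spp1 at chr5:104435118-104441050 on the plus strand. Anxa1 lies at chr19:20373428-20390944 on the minus strand and Ly6a at chr15:74994877-74998031 on the minus strand, inside the Ly6 gene family, whose close copies can share reads. Cd44 lies at chr2:102811141-102901665 on the minus strand and Sox9 at chr11:112782224-112787760 on the plus strand. All 6 are annotated as protein-coding, and counts refer to the whole gene.

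RefSeq promoter sequences (GRCm38.p6, from 250 bases before a start site to 50 after it) matched 3 of the 6 genes: Spp1, Anxa1 and Cd44. Clu, Ly6a and Sox9 are named only. The matched promoters are shown because all 3 of these genes were higher in polyp epithelium. Each was searched on both strands for GGAATG, the core read by TEAD factors, TGANTCA, the AP-1 site, and CTTTGA, a form of the TCF/LEF site, and matches are in capitals. The Spp1 sequence is its first start site at chr5:104434861-104435160 (plus strand), that of Anxa1 is chr19:20390622-20390921 and that of Cd44 chr2:102901616-102901915 (both minus strand).
Spp1: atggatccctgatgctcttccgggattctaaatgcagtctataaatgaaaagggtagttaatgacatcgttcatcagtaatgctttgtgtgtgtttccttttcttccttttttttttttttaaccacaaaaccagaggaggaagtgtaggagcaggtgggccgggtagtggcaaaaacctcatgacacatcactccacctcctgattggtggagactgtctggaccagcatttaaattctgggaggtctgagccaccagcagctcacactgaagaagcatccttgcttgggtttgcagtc
Anxa1: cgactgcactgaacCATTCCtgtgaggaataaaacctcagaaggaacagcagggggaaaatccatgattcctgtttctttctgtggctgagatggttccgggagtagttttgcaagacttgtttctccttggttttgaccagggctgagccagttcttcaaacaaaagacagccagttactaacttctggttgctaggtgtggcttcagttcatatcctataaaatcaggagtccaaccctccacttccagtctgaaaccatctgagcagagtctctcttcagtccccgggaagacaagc
Cd44: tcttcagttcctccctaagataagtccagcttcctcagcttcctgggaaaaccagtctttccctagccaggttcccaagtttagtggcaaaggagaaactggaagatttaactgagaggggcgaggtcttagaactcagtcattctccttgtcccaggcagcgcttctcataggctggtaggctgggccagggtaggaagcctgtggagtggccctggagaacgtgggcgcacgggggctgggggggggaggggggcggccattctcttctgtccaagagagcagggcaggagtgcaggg
The Anxa1 window held 1 match, the TEAD core read on the opposite strand as CATTCC, which starts 236 bases before the start site. The windows of Cd44 and of both Spp1 start sites held 0 matches. Of 32817 promoters of this length, 14.7% held GGAATG, 7.81% held TGANTCA and 16.0% held CTTTGA. A match describes letters and not a bound site, and a window without a match says nothing of the factor.

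The tables held 9950 barcodes and 39222238 UMIs for WT and 14327 barcodes and 63566462 UMIs for Lkb1_Het, and 3252 and 8460 of the barcodes had at least 500 UMIs (counted molecules), at least 250 genes and at most 25% mitochondrial UMIs. Epcam, the surface protein of gut epithelium, was found in 1322 and 4805 of these. Epcam-positive barcodes that also carried 3 markers of an immune, stromal or red cell lineage were set aside as possible mixtures, 23.5% in WT and 14.5% in the polyp library. That left 1011 normal and 4106 polyp epithelial cells, with median depths of 10012 and 7297 UMIs. Acinar-type cells, with pancreatic enzyme genes, were 169 of the normal and 22 of the polyp cells, and the normal ones held 265 of the 2467 Clu UMIs. A total of 10 barcodes occurred in both libraries after filtering. Types were set by at least 3 marker genes above the level of free RNA, with the 6 genes left out of every marker list. The WT library held 9 surface cells (gastric-type mucous cells with Gkn1, Gkn2 and Tff1), 17 gland cells (Muc6, Aqp5), 95 crypt cells (Olfm4, Lgr5) and 37 endocrine cells. The polyp library held 1240, 534, 32 and 245 of the same types. Enterocytes were 394 of the normal and 15 of the polyp cells, and goblet cells 62 and 5. A further 195 and 1913 cells had too few markers for a type and are called untyped, at median depths of 1241 and 2622 UMIs. The polyp crypt-type cells also carried Muc6 at 3443 CPM (UMIs per 1000000 UMIs) against 5.61 CPM in the normal ones, so the name covers unlike cells in the libraries. Most surface and gland cells came from 1 library, so the library and the type cannot be told apart fully in them.

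In Epcam-positive cells, 5 of the 6 genes were higher in the polyp library and 1, Ly6a, was lower. A gene counts as higher or lower where it passed 1.5-fold with an interval clear of 1, after division by the median ratio of all tested genes where that median lay more than 0.1 from 0 on the log2 scale (0.10 here, a scale of 1.07). By the same rule 24.1% of 13920 genes with at least 20 UMIs were higher and 22.0% were lower. All 6 genes passed that count filter. Their log2 differences stood at the 88.7th percentile of all tested genes (Sox9) or above in 5 genes and at the 4.44th in Ly6a. The median log2 difference of the 6 was 4.07 against 0.10 for all tested genes. The Lkb1_Het over WT ratio was 35.2 for Clu, 32.4 for Spp1, 31.0 for Anxa1, 9.12 for Cd44 and 3.48 for Sox9. These ratios compare epithelia of unlike cell types. Enterocytes were 394 of the 1011 normal and 15 of the 4106 polyp cells. The normal ones held 18 UMIs of Clu, 1 of Spp1 and 3 of Anxa1. The part of the cell types in the ratios was not tested.

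**Figure D1:**
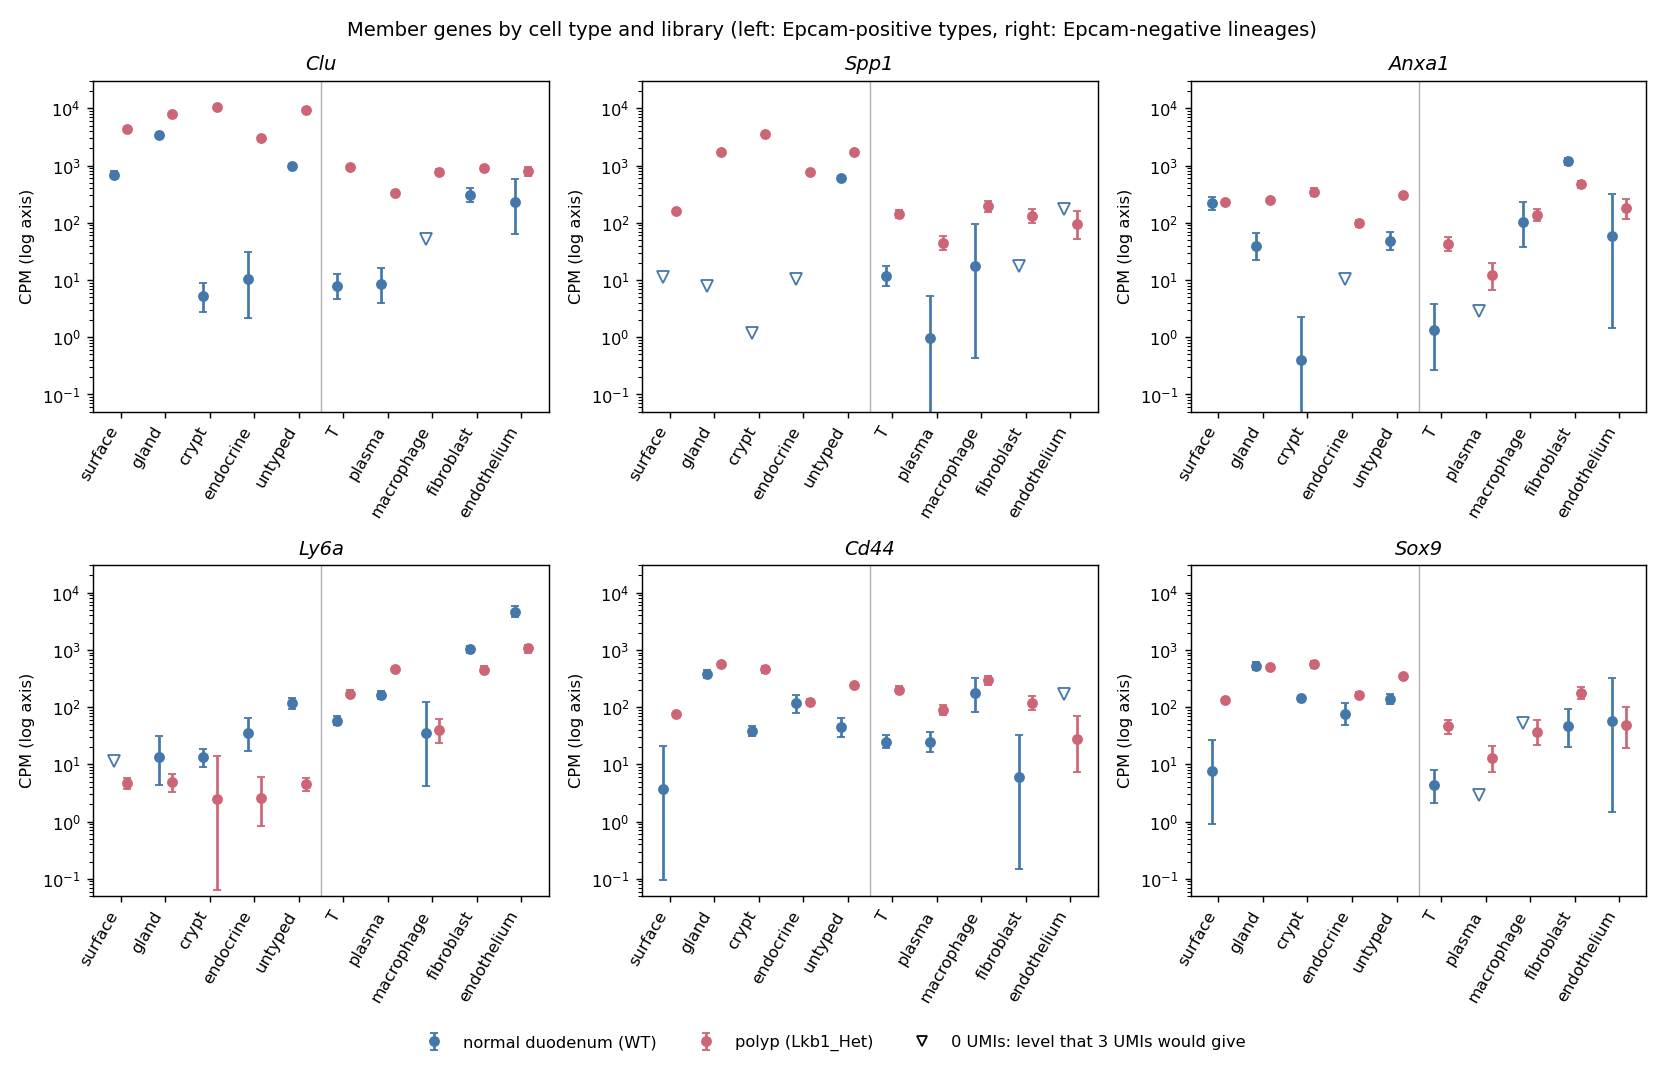
Level of each gene in CPM (vertical log axis) in 5 Epcam-positive cell types (left of the line) and 5 Epcam-negative lineages (right), for the WT (blue) and Lkb1_Het (red) libraries, with exact 95% counting intervals. Open triangles stand at the level of 3 UMIs where 0 were counted, as for Spp1 in the 17 normal gland cells, against 1741 CPM in polyp gland cells.

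Clu UMIs were found in few epithelial cells of the normal duodenum and in nearly all those of the polyp. Polyp T cells held 2.24 Clu UMIs per cell and red cell barcodes 3.18. A UMI alone therefore does not show that a polyp cell makes Clu. In WT Clu stood at 181 CPM (174 to 188) over all Epcam-positive cells and in Lkb1_Het at 6374 CPM (6350 to 6398), a 35.2-fold difference (33.8 to 36.6). The 17 normal gland cells held 1277 of the 2467 normal UMIs. Each of these 17 cells had Clu, from 506 to 9199 CPM. They averaged 3388 CPM, so the gland is a site of Clu in the normal duodenum too, while normal crypt cells had 5.21 CPM (13 UMIs) and enterocytes 2.31 CPM. Polyp gland cells had 7920 CPM, 2.34-fold above normal gland cells (2.21 to 2.47). Relative to the median gene of that type, which was 1.27-fold higher in the polyp, the difference was 1.84-fold. In surface cells Clu averaged 695 CPM in WT, with the 9 cells between 38.6 and 1601 CPM, and 4319 CPM in the polyp, a 6.21-fold difference (5.38 to 7.22). Polyp crypt-type cells had 10344 CPM and untyped cells 9168 CPM. The difference within gland cells was thus far smaller than that over the whole epithelium. Between crypt-type cells, which are unlike cells in the libraries, it was larger, at 1987-fold (1161 to 3736) from 13 normal UMIs.

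In polyp endocrine cells Clu summed to 3070 CPM against 10.6 CPM (3 UMIs) in WT, but the middle cell had 935 CPM and 5 of 245 cells held 25.2% of the UMIs. The middle T cell of the polyp library, which should lack Clu, had 774 CPM. Polyp T cells averaged 963 CPM of Clu (905 to 1023) against 7.92 CPM in T cells of WT. Per cell, Clu was 24.6 UMIs in polyp endocrine cells, 2.24 in T cells, 2.39 in plasma cells and 3.18 in red cell barcodes. The endocrine cells averaged 7999 UMIs of all genes, T cells 2331 and plasma cells 7287. The endocrine level was thus near that of T cells per UMI in the middle cell and above it per cell.

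Among the 6 genes, Spp1 had the highest ratio in gland cells. No Spp1 UMI was found in the 17 normal gland cells, at 376926 UMIs in all, and the 534 polyp gland cells had 12240 UMIs or 1741 CPM (1710 to 1772). Against the level of 3 UMIs over all 17 cells, 7.96 CPM, the polyp level was at least 219-fold higher, and at least 172-fold higher relative to the median gene. Within the polyp the gene was uneven: the middle gland cell had 249 CPM, the upper quartile began at 1670 CPM and the top 5% at 8309 CPM. Crypt-type cells had 3511 CPM in the polyp against 0 UMIs in 95 normal crypt cells, and untyped cells had 1760 CPM. Polyp surface cells had 158 CPM (153 to 164), a level that overlapped the 141 CPM (120 to 166) of polyp T cells.

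The normal Spp1 came almost wholly from 5 untyped cells. They held 129, 117, 91, 32 and 19 UMIs, 388 of the 407 in all Epcam-positive WT cells, and the other 1006 cells averaged 1.40 CPM. The same 5 cells had Clu at 4219 CPM against 164 CPM in the others and Sox9 at 790 against 75.9 CPM. Their Ly6a stood at 341 against 32.6 CPM, and their Anxa1 at 215 CPM (12 UMIs) against 7.30 CPM. They carried Epcam at 1257 CPM, close to the 1461 CPM of the other cells, and held all 112 normal UMIs of Ankrd1, a YAP target. Without the 5 cells with the most Spp1 in each library, the Spp1 ratio was 660 in place of 32.4. In untyped cells the ratio was 2.90 (2.63 to 3.21). With 2 marker genes enough for a type, normal untyped cells had 1557 CPM and polyp ones 1463 CPM, so the direction in untyped cells depends on that setting and on these few cells.

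Anxa1 was higher in polyp gland cells, and its call in surface cells depended on 1 normal cell. Over all Epcam-positive cells it was 8.15 CPM (111 UMIs, 6.70 to 9.81) in WT and 253 CPM (248 to 258) in Lkb1_Het, a 31.0-fold difference (25.7 to 37.7). In surface cells it stood at 222 CPM (WT) and 235 CPM (polyp), and the ratio of 1.06 (0.819 to 1.39) passed in neither direction. Of the 59 normal surface UMIs, 39 lay in 1 of the 9 cells. Without that cell the normal level was 85.7 CPM (52.3 to 132) and the ratio 2.74 (1.77 to 4.49), which counts as higher, so the missing call rests on 1 cell. Dropping the richest cell from WT alone tends to raise the ratio by construction, so this does not show a higher level. In gland cells it stood at 39.8 CPM (15 UMIs, WT) and 253 CPM (polyp), a 6.37-fold difference (3.85 to 11.4), or 9.97-fold without the normal cell that held 6 of the UMIs. Normal crypt cells held 1 UMI, and polyp crypt-type cells 343 CPM. Normal enterocytes had 3 UMIs in 394 cells. Surface cells were 9 of the 1011 normal and 1240 of the 4106 polyp epithelial cells, and the part of this difference in the ratio over all epithelium was not tested.

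Ly6a went the other way from the rest of the set. It was 33.9 CPM (462 UMIs) in WT epithelium and 4.56 CPM (194 UMIs) in the polyp, 7.43-fold lower (6.27 to 8.83). Normal goblet cells had 66.6 CPM, enterocytes 34.1 CPM, endocrine cells 35.2 CPM and crypt cells 13.2 CPM, and normal untyped cells had 116 CPM. Polyp surface, gland, crypt and untyped cells all stood between 2.50 and 4.84 CPM. Of the 462 normal UMIs, 265 lay in 394 enterocytes and 60 in 62 goblet cells. In the polyp, 15 enterocytes held 0 Ly6a UMIs and 5 goblet cells held 7. Per goblet cell that was 1.40 Ly6a UMIs in the polyp and 0.968 in WT, at 18472 and 14539 UMIs of all genes. The part of cell type numbers in the lower Ly6a level over all epithelium was not tested. In gland cells Ly6a stood at 13.3 CPM (5 UMIs, WT) and 4.84 CPM (polyp) and counts as lower only relative to the median gene, where the ratio was 0.287 (0.112 to 0.941). Without the normal cell that held 2 of these UMIs the unscaled ratio was 0.575 (0.181 to 2.93) and the call was lost. Red cell barcodes of the polyp, which should lack Ly6a, had 8.64 CPM (2 UMIs, 1.05 to 31.2), so the polyp epithelial level lay within their interval. Epithelium held 8.61% of the polyp library's Ly6a UMIs, and plasma cells held 25.6% at 466 CPM. Endothelium had 1061 CPM and fibroblasts 452 CPM in the polyp, against 4679 (6 cells) and 1029 CPM in WT. The Ly6a lower direction in epithelium held with the mixed barcodes kept, at a ratio of 0.326.

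Cd44 and Sox9 were high in the gland cells of both libraries. Cd44 was 24.8 CPM (338 UMIs) in WT epithelium and 226 CPM in the polyp, 9.12-fold higher (8.18 to 10.2). Normal gland cells had 379 CPM, with 16 of 17 cells positive, and polyp gland cells 575 CPM. Their ratio was 1.51 (1.28 to 1.80), which passes as higher without the division by the median gene. Relative to that gene it was 1.19, which passed in neither direction. Normal crypt cells had 38.0 CPM and polyp surface cells 74.7 CPM, against 1 UMI in the 9 normal surface cells. In endocrine cells Cd44 stood at 116 CPM (WT) and 122 CPM (polyp), with a ratio of 1.05 (0.731 to 1.57). Crypt-type cells had Cd44 at 38.0 CPM (WT) and 458 CPM (polyp), 9.35 to 15.6-fold higher. In untyped cells it stood at 45.3 CPM (WT) and 246 CPM (polyp), with a ratio of 5.43 (3.80 to 8.07). The surface call rests on 1 normal UMI. Cd44 was thus higher in the epithelium as a whole and within crypt-type and untyped cells. Endocrine cells, and gland cells relative to the median gene, did not pass. Surface cells also counted as higher, but their polyp level was 0.344 times that of the whole library. Polyp red cell barcodes, used below as background for Cd44, stood at 0.359 times.

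Sox9 was 78.8 CPM (74.2 to 83.7) in WT epithelium and 275 CPM (270 to 280) in the polyp, a 3.48-fold difference (3.27 to 3.71). In gland cells it stood at 525 CPM (455 to 604) in normal and 504 CPM (487 to 521) in polyp cells, with a ratio of 0.959 (0.831 to 1.11). Relative to the median gene the ratio was 0.756 (0.655 to 0.877), which lies below 1 but within 1.5-fold. Normal crypt cells had 142 CPM, goblet cells 181 CPM and enterocytes 19.7 CPM. Polyp crypt-type cells had 558 CPM, 3.93-fold above normal crypt cells (3.31 to 4.66), and polyp surface cells 136 CPM against 2 UMIs in WT. The gland level of Sox9 was therefore present in both libraries.

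**Figure D2:**
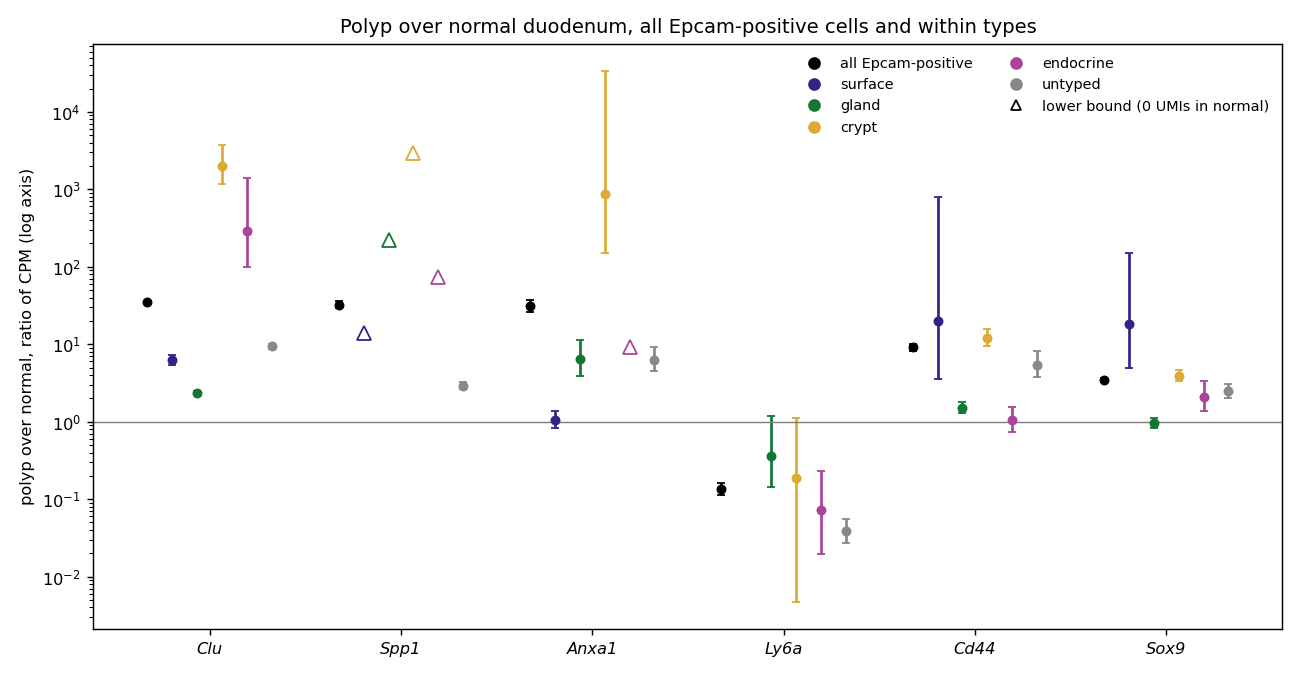
Ratio of CPM, Lkb1_Het over WT (vertical log axis), for each gene over all Epcam-positive cells (black) and within 5 types (colours), with exact 95% counting intervals. Open triangles are lower bounds against 3 normal UMIs. Ratios are drawn without division by the median gene. The gland points (green) lie at 1.51 for Cd44, 0.959 for Sox9 and at least 219 for Spp1, while all drawn Ly6a points lie under 1. Ly6a in surface cells, with 0 UMIs in WT and 4.64 CPM in the polyp, is not drawn, and in endocrine cells it had under 20 UMIs and no call.

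Within types, 4 of 6 genes were higher in surface cells, where 6.82% of 11181 tested genes were higher and 4.57% lower. In gland cells 3 were higher (Clu, Spp1, Anxa1) and 1 lower (Ly6a), beside 6.31% and 6.52% of 10093 genes. Without the division by the median, Cd44 also passed as higher and Ly6a did not pass as lower, beside 14.1% of gland genes higher and 3.13% lower. In crypt-type cells, a name that covers unlike cells in the libraries, 5 of 6 were higher. All genes there were 19.5% higher and 17.9% lower (16.3% and 23.4% without the division). In endocrine cells 4 of the 5 with enough UMIs were higher, beside 12.5% and 12.3% (9.28% and 16.0% without the division). In untyped cells 5 were higher and 1 lower, beside 12.1% and 15.1%. Spp1 and Clu were counted as higher in all 5 of these populations and Sox9 in all but gland cells. The surface and endocrine calls of Spp1, the endocrine call of Clu and the surface call of Cd44 concern cells whose shares at equal depth were not above those of T cells or red cell barcodes. Anxa1 was higher in all but surface cells. There it passed only when the normal cell richest in it was dropped, a step that by construction tends to raise the ratio.

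Free RNA can give a cell UMIs of a gene it does not make, so each cell was thinned to 1000 UMIs, leaving out 271 normal and 554 polyp epithelial cells under that depth, and shares were set beside those in T cells, plasma cells and red cell barcodes. Clu was found in 90.1% of 3552 thinned polyp epithelial cells (89.0 to 91.0) and in 7.30% of 740 normal ones. Polyp T cells, at a median depth of 2098 UMIs against 7297 in the epithelium, had Clu in 58.7% (54.1 to 63.3), plasma cells in 30.6%, red cell barcodes in 69.1% (56.7 to 79.8) and WT T cells in 0.459%. Without thinning the shares were 98.3% in polyp epithelium, 13.8% in WT epithelium and 83.3% in polyp T cells. The polyp gland share of Clu was 93.3% and the surface share 89.9%, both above T cells, while the endocrine share was 63.4% (57.0 to 69.4), whose interval overlaps that of T cells at this depth.

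Spp1 was found in 39.7% of polyp gland cells (35.5 to 44.0), 59.4% of crypt-type cells and 44.4% of untyped cells, against 15.5% of polyp T cells (12.3 to 19.1) and 22.1% of red cell barcodes (12.9 to 33.8). Surface cells at 13.8% and endocrine cells at 14.4% were not above the T cell share at equal depth. Before thinning they held 2.48 and 6.22 Spp1 UMIs per cell, against 0.330 in T cells, 0.324 in plasma cells and 0.505 in red cell barcodes. In CPM, the surface level of 158 overlapped that of polyp T cells and the endocrine level of 777 lay above it. Plasma cells stood lowest of these, at 0.0532 times the level of the whole library. Surface cells were at 0.190 times, endocrine cells 0.932, T cells 0.170 and red cell barcodes 0.280. The readings by share, by CPM and per cell thus differ for these types. How much of their Spp1 is free RNA was not tested. In normal gland cells 0 of 17 thinned cells had a UMI, with an exact upper limit of 19.5% of cells with a UMI (17.6% on a limit of 3 cells). Anxa1 was found in 20.8% of polyp gland and 19.0% of surface cells against 1.97% of T cells. Sox9 was found in 38.6% of polyp gland, 12.9% of surface and 11.5% of endocrine cells against 5.46% of T cells.

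T cells themselves use Cd44 and Ly6a, so red cell barcodes, at a median of 1306 UMIs, served as the background for these genes. Cd44 was found in 44.4% of polyp gland cells (40.1 to 48.7) and in 52.9% of the 17 normal ones (27.8 to 77.0), against 10.3% of red cell barcodes (4.24 to 20.1). The polyp surface share of 8.67% and the endocrine share of 7.82% were not above it at equal depth, while the unthinned counts were 1.17 and 0.980 Cd44 UMIs per cell against 0.168 per red cell barcode. Ly6a was found in 0.422% of polyp epithelial cells (0.237 to 0.696) and in 2.97% of normal ones, against 1.47% of polyp red cell barcodes. Unthinned, the Ly6a shares were 2.83% and 16.6%, and the WT share is the higher in both readings.

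**Figure D3:**
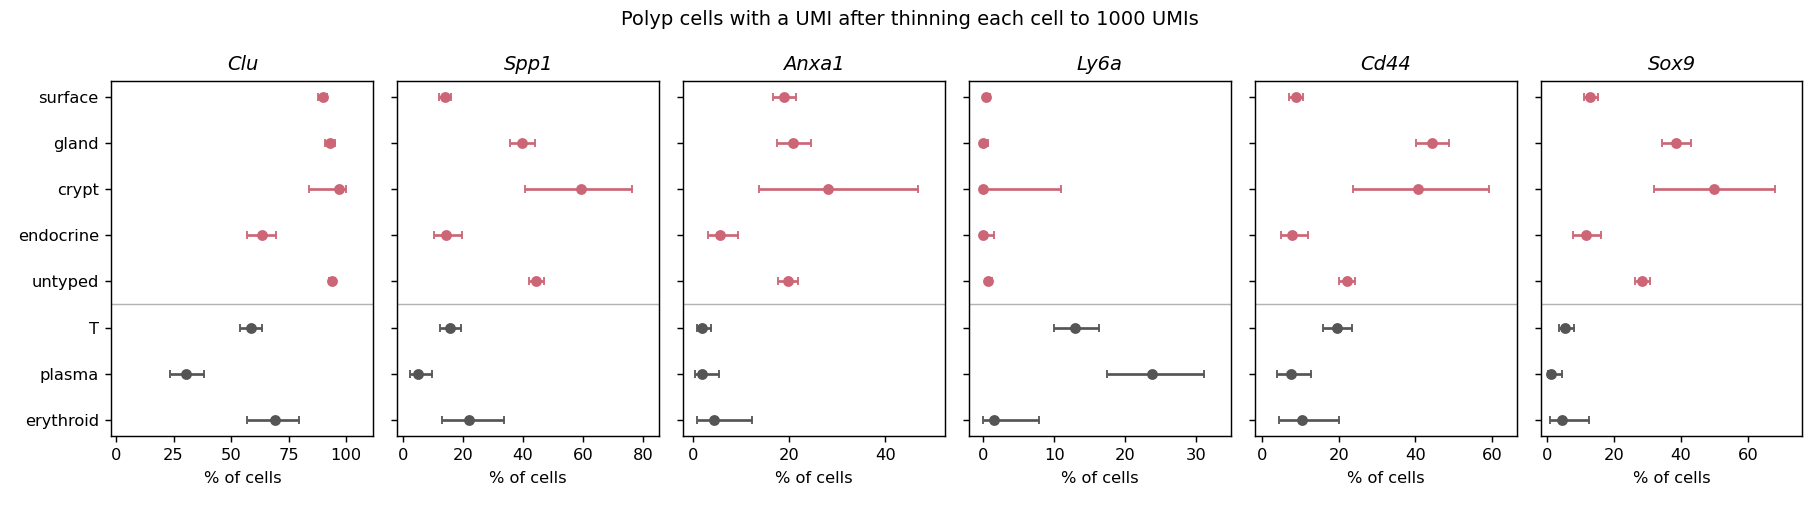
Share of polyp cells with at least 1 UMI of each gene after thinning to 1000 UMIs (horizontal axis, per cent, a separate scale for each gene), in 5 epithelial types (red) and in T cells, plasma cells and red cell barcodes (grey), with exact Clopper-Pearson 95% intervals. Spp1 and Cd44 rise above the grey points in gland and crypt-type cells, and Spp1 also in untyped cells. In surface and endocrine cells neither gene is above T cells or red cell barcodes.

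The stromal and immune cells of the polyp were read in the same way, by scaling each lineage to the gastric mucous genes Tff1, Tff2, Gkn1 and Gkn2, which only the epithelium should make. If RNA of 1 source lay over all lineages, a gene that the lineage does not make would keep the ratio to these genes that it has in T cells. This holds only for genes that T cells do not make, so Cd44 and Ly6a cannot be read against free RNA in this way. In WT, 669 T cells held 27 Spp1 UMIs, against 1 in 394 enterocytes and 1 in 79 plasma cells. Whether T cells make Spp1 was not tested, so its values are relative to T cells only. For Clu the observed UMIs were 0.986 times that number in plasma cells (0.893 to 1.09), 0.927 in macrophages, 0.967 in fibroblasts and 1.09 in red cell barcodes. Smooth muscle stood at 2.06 (1.72 to 2.45) and endothelium at 1.32 (1.09 to 1.59). Clu in most non-epithelial lineages thus kept the ratio found in T cells, with a higher level in smooth muscle and endothelium.

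Spp1 was at 1.56 times the T cell ratio in macrophages (1.26 to 1.91) and 1.83 in mast cells (1.20 to 2.68), and between 0.909 and 1.31 in plasma cells, B cells, fibroblasts, smooth muscle, endothelium and red cell barcodes. Its macrophage level, 193 CPM, was far below the 1741 CPM of gland cells. Anxa1 was 11.5 times the ratio in fibroblasts (9.96 to 13.2), 11.1 in smooth muscle, 6.62 in endothelium and 3.67 in macrophages. Sox9 was 4.01 times the ratio in fibroblasts (3.15 to 5.03) and within counting error of it in plasma cells, macrophages and red cell barcodes. Anxa1 is thus also a stromal and myeloid gene here, and Sox9 was above that ratio in fibroblasts.

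**Figure D4:**
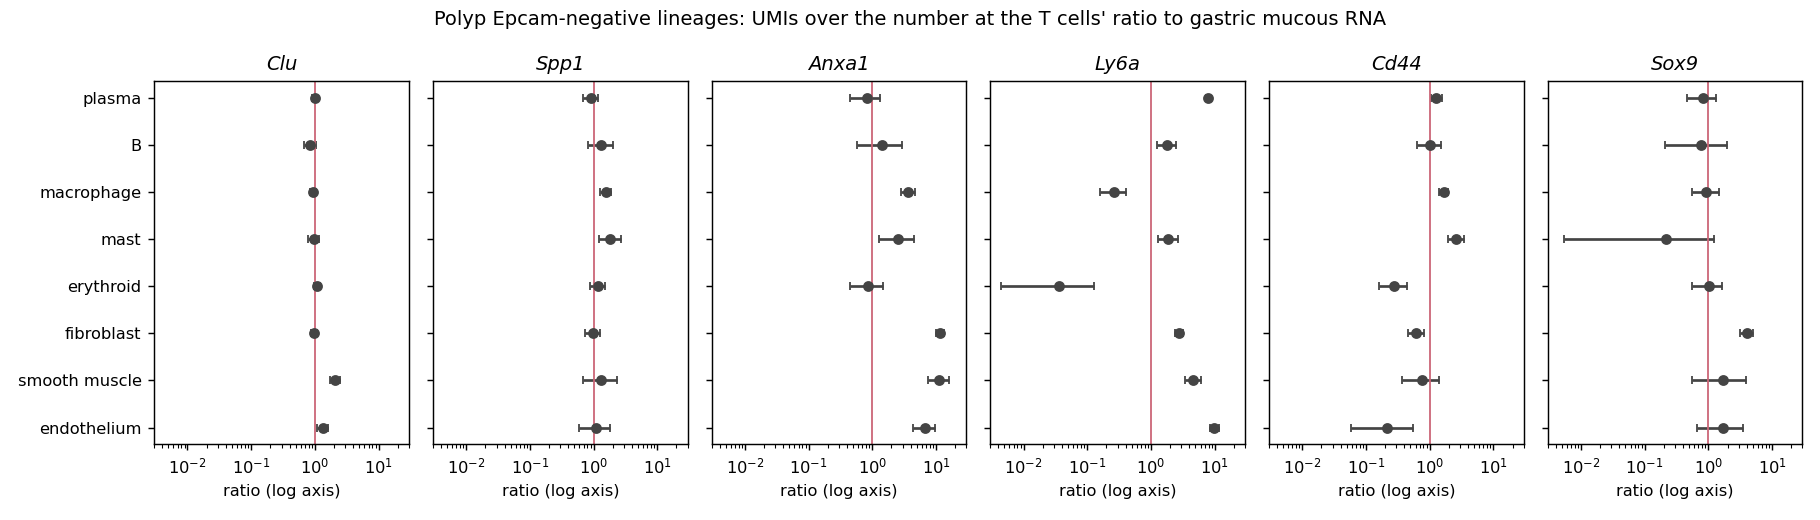
UMIs of each gene in 8 Epcam-negative polyp lineages, divided by the number that the T cells' ratio to gastric mucous RNA would give (horizontal log axis, line at 1), with exact 95% counting intervals. Clu points lie between 0.839 and 2.06, Anxa1 reaches 11.5 in fibroblasts, and Ly6a spans from 0.0359 in red cell barcodes to 9.86 in endothelium. T cells make Cd44 and Ly6a themselves, so for these genes the line is the level relative to T cells and not that of free RNA. Whether this also holds for Spp1 was not tested.

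By share of UMIs, the epithelium held 91.9% of polyp Clu, 91.9% of Spp1, 91.8% of Sox9, 87.3% of Anxa1 and 82.7% of Cd44, at 79.2% of all UMIs. In WT it held 82.5% of Clu, 83.9% of Spp1 and 92.3% of Sox9, but 25.1% of Anxa1. The 30 normal fibroblasts held 45.9% of normal Anxa1 at 1200.4 CPM, and polyp fibroblasts had 475 CPM. The main source of Anxa1 UMIs was therefore stroma in WT and epithelium in the polyp. Untyped cells gave 48.1% of polyp Spp1, gland cells 27.3% and surface cells 6.86%. For Clu the surface cells gave 28.4%, gland cells 18.9% and untyped cells 38.0%. Markers of other lineages differed by panel. The 9 fibroblast markers summed to 5.97 CPM in polyp gland cells and were all at 0 in normal ones. The 9 macrophage markers summed to 6.97 CPM in polyp gland cells and were also all at 0 in WT. The 6 pan-immune markers summed to 95.5 CPM (36 UMIs from 2 of the markers, with Ptprc at 0) in normal and 34.9 CPM in polyp gland cells. The 8 acinar markers summed to 1003 CPM in normal and 927 CPM in polyp gland cells, and to 6872 and 918 CPM in untyped cells. The part of these levels in the results was not tested.

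Cell by cell, the genes of the set were weakly to moderately related, as Pearson's r over cells of log(1 + UMIs per 10000), given as a description. Cells of 1 library share its free RNA and differ in depth. Over 4106 polyp epithelial cells r was 0.35 for Clu with Spp1, 0.34 for Cd44 with Sox9 and 0.32 for Clu with Cd44. Ly6a stayed between -0.03 and 0.02 with all 5 others. Anxa1 had r of 0.24 with Clu and 0.08 with Spp1, and 0.33 with the log of total UMIs. Within 534 gland cells Clu kept r of 0.36 with Spp1, 0.37 with Anxa1 and 0.30 with Cd44, while Spp1 with Cd44 was 0.01. In 1011 WT cells Clu with Spp1 was 0.47 (17 cells with both genes) and Clu with Ly6a 0.25 (28 cells). Spearman's rho of these pairs was 0.35 and 0.055. In 195 normal untyped cells Clu with Ly6a was 0.60 (rho 0.56), from 11 cells with both genes. The Spp1-rich normal cells described above are among these untyped cells. The difference between the libraries in these values was not tested.

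**Figure D5:**
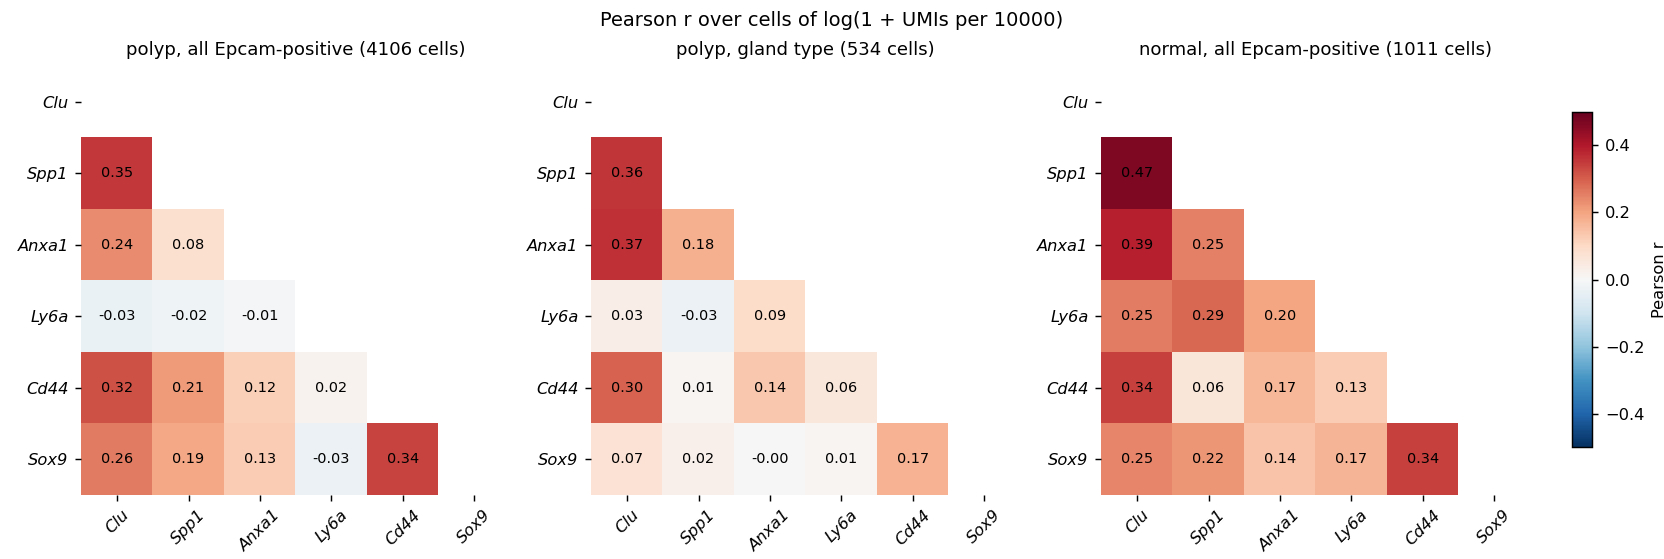
Pearson's r between the genes over single cells, for polyp epithelium, polyp gland cells and WT epithelium, on a colour scale from -0.5 to 0.5. The Ly6a row is close to 0 in both polyp panels and reaches 0.29 in WT, with Spp1, where 12 cells had both genes. The Spp1 with Cd44 square falls from 0.21 in all polyp epithelium to 0.01 in gland cells.

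Co-detection after thinning followed the same lines. Spp1 was found in 34.3% of 3199 Clu-positive polyp epithelial cells and in 9.07% of 353 without Clu. In gland cells the shares were 42.0% of 498 and 8.33% of 36. Cd44 in gland cells was found in 43.9% of those with Spp1 and 44.7% of those without, shares whose intervals (37.1 to 50.8 and 39.2 to 50.3) overlap. At least 3 of the 6 genes were found in 25.2% of polyp epithelial cells, 42.9% of gland, 62.5% of 32 crypt-type, 32.1% of untyped, 9.87% of surface and 5.35% of endocrine cells. In WT the share was 1.49% of 740 cells, with 4 of 17 gland cells. In polyp T cells, which make Cd44 and Ly6a themselves, the share was 5.68%.

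The genes most like each member were ranked by Pearson's r over polyp epithelial cells among 6389 genes found in at least 10% of them. Clu was closest to Dmbt1 (0.54), a secreted mucosal defence protein, followed by Reg1, Mug1, Reg3b and Pigr, the receptor that carries IgA across epithelium. Spp1 was closest to the lectin gene Reg3b (0.42), then Reg3g, Reg1, Mug1 and Slc9a3, a sodium-proton exchanger. Anxa1 was closest to Plaur (0.31), the urokinase receptor, then Krt18, Hbegf, Ctse and Gpx2. Cd44 was closest to Aqp5 (0.51), Muc6 (0.50), Cldn2, Slc12a2 and F5, and Sox9 to Aqp5 (0.38), Slc12a2, Gfpt1, F5 and Cldn2. Aqp5 and Muc6 are among the gland markers that set the types. Ly6a, found in 2.83% of cells, had no r above 0.11 (Isg15).

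Cycling cells, with at least 3 of the cell cycle markers, were lower in Clu, Spp1, Cd44 and Sox9. Ly6a had few UMIs, 33 in cycling and 161 in other cells, at 0.0792 and 0.118 times the level of the whole library. In polyp epithelium Clu was 4281 CPM in 450 cycling and 7011 CPM in 3656 other cells, and Spp1 363 and 1152 CPM. Cd44 was 80.9 and 271 CPM and Sox9 165 and 308 CPM. Anxa1 was 299 CPM (289 to 310) in cycling and 238 CPM (233 to 244) in other cells. Median depths were 19503.5 and 5685.5 UMIs, and 275 of the cycling cells were surface type. Within surface cells the cycling ones had Anxa1 at 278 against 210 CPM and Clu at 3782 against 4624 CPM, in the same directions. The part of the cell types in the differences of the other genes was not tested.

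Other fetal-like or injury genes were mostly higher in polyp epithelium: of 30 tested in a list of 32, 19 were higher, 6 lower and 5 neither, beside 24.1% and 22.0% of all genes, with a median log2 difference of 1.43 against 0.10. S100a6, a calcium-binding protein gene, stood at 312 CPM (WT) and 4645 CPM (polyp) (14.9-fold, 14.4 to 15.4), and S100a11 142 and 1114 CPM (7.84-fold). Anxa8 had 1 UMI in WT and 5.67 CPM in the polyp (77.3-fold, 13.7 to 3064). Ereg, the EGF receptor ligand epiregulin, was 3.82 and 0.282 CPM, 13.5-fold lower (7.12 to 27.8). In gland cells 14 of 26 were higher and 2 lower (6.31% and 6.52% of all genes), and in surface cells 4 of 28 were higher and 8 lower (6.82% and 4.57%), with medians of 1.64 (all genes 0.34) and -0.24 (all genes 0.10).

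YAP and TEAD targets were higher in 7 of 12 and lower in 2, beside 24.1% and 22.0% of all tested genes, with a median of 0.90 against 0.10. Ccn1, a matricellular protein, stood at 153 CPM (WT) and 313 CPM (polyp) (2.04-fold), Ccn2 1.10 and 14.3 CPM (7.83 to 23.4-fold higher), and Nt5e, an ectonucleotidase, 2.13 and 25.5 CPM (8.28 to 17.9-fold higher). Ankrd1 was 8.22 and 1.51 CPM, 5.46-fold lower, and its normal UMIs all lay in the 5 Spp1-rich cells. In gland cells 1 of 7 tested targets was higher and 2 were lower, beside 6.31% and 6.52% of all genes. Of the stem cell and Wnt genes 7 of 20 were higher, 6 lower and 7 neither, with a median of 0.38. These counts lie near the 24.1% higher and 22.0% lower of all genes. Prom1 was 53.8 and 451 CPM (8.39-fold) and the ion transporter Slc12a2 115 and 414 CPM (3.61-fold). Olfm4, a crypt base stem cell marker, was 414 and 3.08 CPM, 134-fold lower (113 to 161). In gland cells 0 of 20 of these genes were higher and 4 were lower, beside 6.31% and 6.52%.

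Among partners of osteopontin and CD44, 9 of 14 tested were higher and 3 lower, beside the same 24.1% and 22.0% of all genes. Itgb1, an integrin chain that binds osteopontin, was 60.1 and 97.1 CPM (1.62-fold) and Itgb8 was 1 UMI and 1.69 CPM. Ezr, which links CD44 to actin, stood at 270.4 CPM (WT) and 267 CPM (polyp), with a ratio of 0.989. Mmp7, the Paneth cell protease that cleaves osteopontin, was 54.9 and 1.79 CPM, 30.7-fold lower.

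Relatives of the set were not uniform, and their counts stand beside the same shares of all genes. Of 7 SOX genes 4 were higher and 1 lower: Sox21 was 1.76 and 54.7 CPM (31.1-fold) and Sox2, a foregut factor, 0.440 CPM (6 UMIs) and 22.3 CPM. Sox4 was 69.1 and 74.8 CPM, not called, and Sox6 was 6.61 and 0.329 CPM, 20.1-fold lower. Of 10 Ly6 genes 7 were higher, unlike Ly6a: Psca was 66.6 and 655 CPM (9.83-fold), and Ly6h, with 0 UMIs in WT, was at least 21.7-fold higher. Lypd8, made by enterocytes, was 2990 and 494 CPM, 6.06-fold lower. Of 11 other annexins 6 were higher. Anxa10, a gastric annexin, was 29.9 and 567 CPM (18.9-fold), Anxa2 406 and 467 CPM (not called), and Anxa13, an intestinal annexin, 263 and 2.66 CPM, 98.7-fold lower.

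Of the genes that answer to tissue dissociation 4 of 15 were higher, near the 24.1% of all genes, and 0 lower over all epithelium, with a median of 0.23. Fos was 1283 and 1503 CPM and Jund 1104 and 1197 CPM, neither called. Hspb1, a small heat shock protein, was 35.7 and 249 CPM (6.98-fold), and Atf3 was 722 and 547 CPM, not called. In gland cells 3 of 15 were higher and 9 lower relative to the median gene, beside 6.31% and 6.52% of all genes. In surface cells 10 of 15 were higher and 0 lower, beside 6.82% and 4.57%. In crypt-type cells 14 of 15 were higher and 0 lower, beside 19.5% and 17.9%. In endocrine cells 3 were higher and 2 lower (12.5% and 12.3% of all genes), and in untyped cells 2 and 4 (12.1% and 15.1%). Their part in the values of the 6 genes was not tested.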

How the data were processed

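Single-cell RNA was counted in 2 libraries, and the deposited values are whole-number UMI counts per gene and barcode. The counts were made with Cell Ranger 5.0.0 per the file headers, while the submitters' processing notes name Cell Ranger 3.0.0 and mm10. Counting settings and strand are not given in the sources used here. Tissue was digested with collagenase before capture, per the labels' protocols.

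Barcodes with at least 500 UMIs, 250 genes and at most 25% UMIs from 13 mitochondrial genes were kept. A type or lineage needed 3 distinct marker genes above the free RNA level (Poisson tail 0.01), goblet cells also needed a Muc2 UMI, and ties were called mixed. Gkn3, Cela1 and Stmn1 were left out of the markers after their values were seen. No doublet caller was run, and Epcam-positive barcodes with a second lineage were set aside. Counts were summed per library and population, divided by all UMIs (CPM), and compared as ratios with exact conditional binomial intervals. Levels have exact Poisson and shares exact Clopper-Pearson 95% intervals. PCR and pooling of mice are not covered by these intervals, and a count of 0 is limited by 3 UMIs. Shares and co-detection used 1 seeded draw of 1000 UMIs per cell. A called gene had at least 20 UMIs over both libraries. No p-value is given, since each group is 1 library.

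The 6 genes and all lists were chosen with earlier results of these data known. Named list genes are the 2 with the most UMIs plus the highest and lowest ratio, or fewer where these coincide. The result of 1 gene list is not reported here. Scripts ran in Python 3.11.15 with numpy 2.4.6, scipy 1.17.1, pandas 2.3.3 and matplotlib 3.10.9, and were tested on simulated data. Alternatives covered the barcode filters, the Epcam minimum, mixed barcodes, averaging, thinning depth, marker number, rank correlation and the count minimum.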

Additional observations from a re-analysis of the deposited data

Results flagged for a closer look

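Epcam-positive barcodes that failed the barcode filter also carried 5 of the 6 genes above the level in the same kind of WT barcodes. They number 1618 in the polyp library and 3066 in WT, with median depths of 1858.5 and 2957 UMIs and median mitochondrial shares of 48.2% and 50.8%. Clu stood at 3368 CPM (3309 to 3428) in the polyp barcodes and 24.2 CPM in WT. Spp1 was 349.6 and 1.20 CPM, Anxa1 124.5 and 1.57 CPM, Cd44 137 and 8.48 CPM and Sox9 149 and 40.4 CPM. Ly6a was 9.87 CPM (6.91 to 13.7) and 7.56 CPM (6.01 to 9.38), with intervals that overlap.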

How the results depend on the processing

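No paired analysis was possible because each group is 1 library. Alternatives that drop the 5 cells richest in a gene, the normal cell richest in it or acinar-type cells, subtract the T cell level or use 2 markers were chosen after seeing the data. The ratios over all epithelium kept their direction in each alternative run for them (Ly6a and Cd44 were not run with the T cell level subtracted). At most 10% mitochondrial UMIs gave 24.8 for Clu, 26.1 for Spp1, 19.7 for Anxa1, 7.19 for Cd44 and 2.84 for Sox9. With no barcode filter they were 54.8, 53.6, 46.2, 12.5 and 4.29, with Ly6a at 0.208. At least 2 Epcam UMIs gave Ly6a 0.112. With mixed barcodes kept, Clu was 38.5, Anxa1 22.9, Ly6a 0.326 and Sox9 3.80. The mean of each cell's CPM gave Clu 32.6, Spp1 22.6, Anxa1 24.4, Ly6a 0.276 and Sox9 4.17. Without the 5% of cells with the most UMIs, Clu was 42.6 and Ly6a 0.107. Without the 5 cells richest in each gene, Clu was 63.3, Spp1 659.9, Anxa1 79.8, Cd44 11.6 and Sox9 3.84, from fewer cells by construction. With the T cell level subtracted, Clu was 31.3, Spp1 46.0 and Sox9 3.07. WT T cells held 27 Spp1 UMIs, and whether these are their own or free RNA was not tested. Without acinar-type cells Clu was 37.8, and the other 5 ratios stayed within their intervals. Without the normal cell richest in the gene, Anxa1 in surface cells gained its call (2.74) and Ly6a in gland cells lost it (0.575), while 5 other ratios within these types kept theirs. The cell was dropped from WT alone, which tends to raise the ratio by construction and so is no check on a higher call. Cd44 and Sox9 in surface cells then had 0 normal UMIs and no ratio, since 1 cell held all 1 and 2 of them. Their surface calls were therefore not checked. At least 1000 UMIs per barcode moved 0 of 6 ratios beyond their intervals. Thinned to 500 UMIs, polyp shares were 81.1% for Clu, 23.4% for Spp1, 9.77% for Anxa1, 11.4% for Cd44 and 13.3% for Sox9, and WT shares 1.58% for Ly6a, 1.19% for Cd44 and 3.96% for Sox9. Not thinned, polyp shares were 98.3% for Clu, 57.8% for Spp1, 55.3% for Anxa1, 2.83% for Ly6a, 52.0% for Cd44 and 61.3% for Sox9. The WT shares were then 13.8% for Clu, 2.67% for Anxa1, 16.6% for Ly6a, 12.3% for Cd44 and 29.7% for Sox9. With at least 100 UMIs, 1 YAP and TEAD target was lower and 2 SOX genes were higher, since fewer genes were tested, and the other 16 list counts stayed within 1.5 times. Levels by type moved beyond their intervals in 30 of 60 cases with 4 markers and 25 of 60 with 2. Spearman's rho moved 5 of 30 correlations, among them Clu with Ly6a in WT, from 0.25 to 0.055. Beyond the filters and the thinning depth, where the construction itself changes the cells or reads, the cause was not tested. The 9 surface and 17 gland cells of WT limit every comparison within those types.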
